A study of Mus musculus with 30 samples.

Results

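The Cdx family of the mouse consists of Cdx1, Cdx2 and Cdx4, and all 3 genes were followed as rows of a count table with 54134 rows. Members were taken by name, though with earlier results of these data known, and all 3 passed the filter on low counts that left 12149 genes for testing. The table held 30 RNAseq libraries of ES-Bruce4 mouse embryonic stem cells (ESCs) that were differentiated towards neuromesodermal progenitors (NMPs), with 3 libraries in each of 10 groups. Every group received FGF2 in N2B27 medium. At d2 cells had FGF2 alone, at d2.5 and d3 they had additionally received the Wnt agonist CHIR99021 for 12 h and 24 h, and at d4 both factors had been continued for a further 24 h. The d4G cells were handled as the d4 cells, with Gdf11 added for the last 24 h. At each of these 5 stages, wildtype cells were compared with Nr6a1-/- cells, in which CRISPR/Cas9 had made an independent deletion in exon 4 of each Nr6a1 allele. A single clone gave every mutant library, and clone and genotype cannot be told apart, and nothing in the labels says that replicates were separate cultures, so that p-values measure the spread between these libraries, which may be technical. The comparisons ask how the Cdx genes responded to Wnt activation, to time and to Gdf11, and whether each response differed without Nr6a1.

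The Cdx genes encode homeodomain transcription factors related to Drosophila caudal. In the vertebrate embryo they are expressed in the posterior growth zone, downstream of Wnt and Fgf signals, where they activate trunk Hox genes and are needed for the body axis to elongate. Cdx1 is a direct target of canonical Wnt signalling and of retinoic acid, Cdx2 also acts in the trophectoderm and, with Cdx1, in the gut, and Cdx4 is the X-linked member that is best known from its overlap in function with Cdx2 in axial extension. Nr6a1 encodes an orphan nuclear receptor, and Gdf11 is a TGF-beta family ligand that acts at the transition from trunk to tail.

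The members are most alike in 1 stretch of their coding sequence, and their transcripts can be told apart at the 3′ ends. In the GENCODE transcripts, the most alike ungapped stretch of 180 coding bases was identical at 150 positions between Cdx2 and Cdx4 (83.3%), at 144 between Cdx1 and Cdx4 (80.0%) and at 142 between Cdx1 and Cdx2 (78.9%). The stretches of Cdx2 (coding bases 540 to 719 of 933) and Cdx4 (coding bases 498 to 677 of 846) are shown because they are where a read of one member would most resemble the other. Capitals mark the 30 bases at which they differ.
Cdx2: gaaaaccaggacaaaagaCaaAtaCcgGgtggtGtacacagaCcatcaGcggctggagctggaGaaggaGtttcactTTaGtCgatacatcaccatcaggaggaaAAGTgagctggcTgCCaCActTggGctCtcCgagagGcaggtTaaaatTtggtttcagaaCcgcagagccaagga
Cdx4: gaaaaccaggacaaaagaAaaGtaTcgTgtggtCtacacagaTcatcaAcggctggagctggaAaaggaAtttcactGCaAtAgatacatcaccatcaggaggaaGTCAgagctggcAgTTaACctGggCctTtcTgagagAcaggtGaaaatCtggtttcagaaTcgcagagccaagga
The libraries were read from the 3′ ends of transcripts, far from these stretches. Within the last 500 bases of the transcripts the longest exact run shared was 10 bases between Cdx1 and Cdx2, and 8 bases between Cdx4 and each of the others.

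The sequence before each start site is shown because Cdx2 and Cdx4 rose together after Wnt activation and later diverged. These are the 250 bases up to the RefSeq transcription start of Cdx2 (GRCm38.p6, chr5:147307250-147307499, minus strand) and of Cdx4 (chrX:103321148-103321397, plus strand), with matches to any of 4 short motifs in capitals.
Cdx2: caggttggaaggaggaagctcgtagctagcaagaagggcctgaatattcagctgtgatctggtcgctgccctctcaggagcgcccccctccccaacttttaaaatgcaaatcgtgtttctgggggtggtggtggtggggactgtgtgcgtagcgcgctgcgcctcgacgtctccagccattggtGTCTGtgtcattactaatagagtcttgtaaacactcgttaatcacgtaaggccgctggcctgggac
Cdx4: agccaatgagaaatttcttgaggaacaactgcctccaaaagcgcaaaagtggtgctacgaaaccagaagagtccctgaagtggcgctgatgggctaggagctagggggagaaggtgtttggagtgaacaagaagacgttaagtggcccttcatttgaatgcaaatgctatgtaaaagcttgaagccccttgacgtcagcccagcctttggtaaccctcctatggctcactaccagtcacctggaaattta
The motifs searched on both strands were CTTTGA, a core bound by TCF/LEF factors, TTTATG, a core bound by Cdx factors, AGGTCA, a site of nuclear receptors, and CAGAC, a core bound by Smad factors. The only match was 1 CAGAC in the Cdx2 window, read on the opposite strand and starting 66 bases before the start site. CAGAC was present in 42.19% of 32851 RefSeq promoter windows of the same length, AGGTCA in 14.02%, CTTTGA in 13.83% and TTTATG in 10.76%. A match is a match of letters and no evidence of binding, and its absence concerns this window alone. GC content was 55.2% for Cdx2 and 48.4% for Cdx4, beside a median of 52.4% over all windows.

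Library totals ranged from 1570714 to 3688197 counts, with a median of 2366002, and 21981 counts in all fell on the 3 Cdx genes. Levels are CPM, the counts divided by the library total and expressed per 1000000 counts, scaled by TMM factors, given as mean ± SD of 3 libraries. A count of 3, taken as the floor of a library, was worth 0.813 to 1.91 CPM, which covers counting error only. Counts of Nr6a1 were no check of the genotype, because 3′ libraries do not read the deleted exon. In CPM, every Nr6a1-/- library lay above every wildtype library at d2, d2.5, d3 and d4 (221 ± 33 against 96.9 ± 1.6 CPM at d4). At d4G the ranges overlapped. The library d4 wildtype replicate 2 stood apart from its group. Its 7 epiblast markers summed to 727 CPM, against 96.5 and 88.8 CPM in the other d4 wildtype libraries, and the members' changes tested against d4 wildtype are therefore also given without it. By their labels, 4 of the 6 d4 libraries carry the same index sequence as a d4G library. The labels do not name the sequencing pools, and the part of a pool in the comparisons of d4 with d4G was not tested. The summed epiblast markers of wildtype cells fell from 2691 to 2726 CPM at d2 to 197 to 212 CPM at d3, while T (Brachyury), which marks caudal progenitors, stood at 4.51 CPM at d2 and 307 CPM at d3. Sox2, which NMPs express together with T, went the other way in Nr6a1-/- cells, from 144 CPM at d2 to 74.6 CPM at d3. In wildtype cells Sox2 measured 77.9 CPM at d3. The fall of Sox2 was not shown to be particular to either genotype. Its log2 change (Nr6a1-/- minus wildtype) differed by -0.29 from d2 to d2.5 and by 0.03 from d2.5 to d3. Neither difference passed the edgeR test described below. In Nr6a1-/- libraries the epiblast sum lay above the wildtype range at d2 (3498 to 3646 CPM) and d2.5 (849 to 896 against 706 to 711 CPM). It did so too at d3 (245 to 266 CPM) and d4G (97.4 to 111 against 88.2 to 93.3 CPM). Most of the d3 sum was Dnmt3b (mean 178 against 129 CPM in wildtype). Pou5f1 and Fgf5 also had higher means at d3, and Nanog measured 13.4 CPM in both genotypes. Utf1 (35.0 against 43.4 CPM), Pou3f1 (8.01 against 9.39 CPM) and Otx2 (0.397 against 0.896 CPM) had lower means at d3. The part of the epiblast sum in the genotype comparisons at these stages was not tested.

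Cdx transcripts were close to the floor before Wnt activation. The d2 wildtype libraries held 5, 4 and 2 counts of Cdx1, 4, 1 and 3 of Cdx2, and 2, 2 and 2 of Cdx4. The d2 Nr6a1-/- libraries held 2, 1 and 8 counts of Cdx1, 3, 2 and 3 of Cdx2, and 2, 3 and 3 of Cdx4. The ranges of the genotypes overlapped for every member, and no library was without a count. No difference between genotypes was detectable at this depth, with log2 fold changes (Nr6a1-/- against wildtype) of -0.07 for Cdx1 (95% CI -1.25 to 1.10), -0.07 for Cdx2 (95% CI -1.33 to 1.20) and 0.33 for Cdx4 (95% CI -0.88 to 1.53). Calls rest on the quasi-likelihood test of edgeR, with p-values adjusted by Benjamini-Hochberg across every gene tested (FDR). At d2 it called 4.07% of genes and none of the members. The direction at d2 rested on single libraries, since Cdx1 came to 0.23, 0.13, 0.13 and 0.42 without wildtype replicate 1 or 2 or Nr6a1-/- replicate 1 or 2, and Cdx2 to 0.35 and 0.15 without wildtype replicate 1 or Nr6a1-/- replicate 2.

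**Figure D1:**
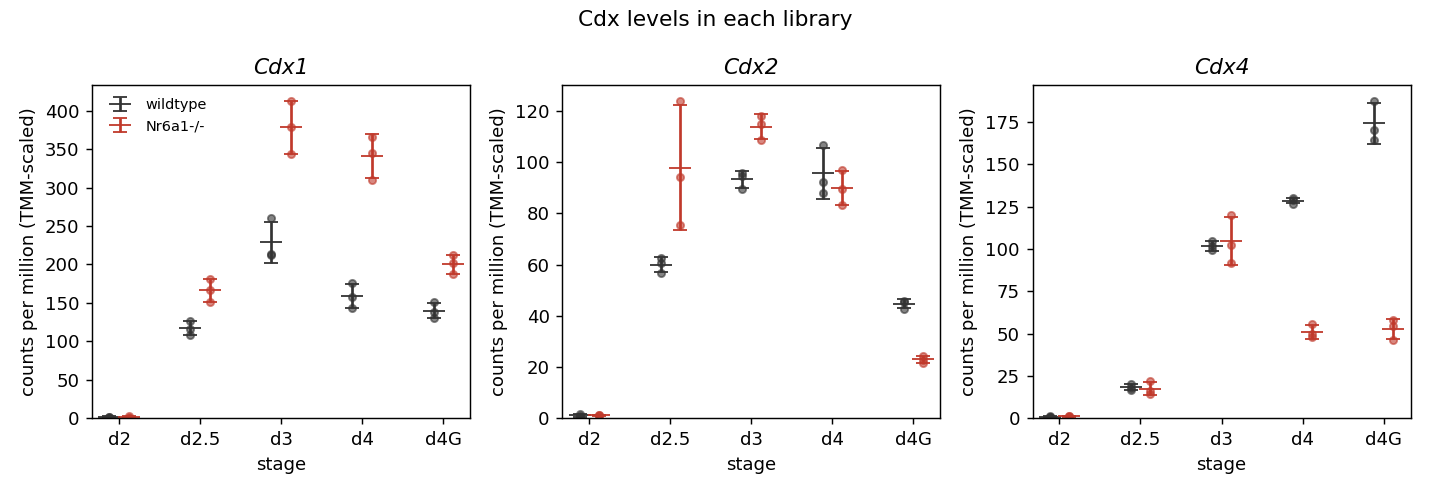
Level of Cdx1, Cdx2 and Cdx4 (TMM-scaled CPM, linear axis from 0) by stage, wildtype in black and Nr6a1-/- in red; points are libraries, bars mark the mean and SD of 3. Cdx1 lay higher in every Nr6a1-/- library than in every wildtype library from d2.5 on, while Cdx4 separated at d4 and d4G, where Nr6a1-/- libraries were the lower.

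Within 12 h of Wnt activation all 3 members rose in both genotypes. In wildtype cells at d2.5, Cdx1 measured 126, 116 and 108 CPM, Cdx2 60.5, 62.5 and 56.8 CPM, and Cdx4 20.3, 16.6 and 18.1 CPM. Every d2.5 library was far above every d2 library for each member. The fitted log2 fold changes in wildtype were 6.19 ± 0.24 (SE) for Cdx1, 5.68 ± 0.27 for Cdx2 and 4.37 ± 0.32 for Cdx4 (FDR = 5.06e-21, 9.80e-19 and 4.38e-13). Because d2 held so few counts, the ratio of pooled counts per total is also given, with its 95% counting interval, as 80.5 (44.7 to 162.0) for Cdx1, 56.7 (28.5 to 132) for Cdx2 and 23.2 (10.3 to 64.5) for Cdx4. In Nr6a1-/- cells these ratios were 117 (65.0 to 234), 94.4 (47.7 to 219) and 17.0 (8.38 to 40.0), and the log2 fold changes were 6.77 ± 0.23, 6.45 ± 0.24 and 3.97 ± 0.29. All 3 members were thus called in each genotype, where 25.4% (wildtype) and 24.1% (Nr6a1-/-) of genes were called in either direction.

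The size of this first rise was not shown to differ between genotypes. The difference in log2 fold change (Nr6a1-/- minus wildtype) was 0.58 for Cdx1 (95% CI -0.66 to 1.81, FDR = 0.77 by edgeR), 0.77 for Cdx2 (95% CI -0.58 to 2.12, FDR = 0.72) and -0.39 for Cdx4 (95% CI -1.65 to 0.86, FDR = 0.89), with 0.609% of genes called. The d2 counts behind these wide intervals were few.

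At d2.5 itself, Cdx1 and Cdx2 were higher in Nr6a1-/- cells and Cdx4 was not called. Cdx1 measured 181, 166 and 151 CPM in Nr6a1-/- libraries, all above the wildtype range of 108 to 126 CPM, a log2 fold change of 0.51 ± 0.12 (FDR = 0.0054 by edgeR). Without d2.5 Nr6a1-/- replicate 1 this value was 0.43 and was not called (FDR = 0.052). Cdx2 measured 94.0, 75.4 and 124 CPM against 56.8 to 62.5 CPM, again without overlap, a log2 fold change of 0.71 ± 0.12 (FDR = 0.00023). Cdx4 measured 16.0, 21.9 and 14.6 CPM, a range that contained the 3 wildtype values, and its log2 fold change was -0.07 (95% CI -0.41 to 0.27). The background of calls at d2.5 was 6.45% of genes.

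From d2.5 to d3, Cdx1 and Cdx4 rose further in both genotypes and Cdx2 in wildtype. Cdx4 went from 18.4 ± 1.9 to 102 ± 2.9 CPM in wildtype and from 17.5 ± 3.9 to 105 ± 14 CPM in Nr6a1-/- cells, log2 fold changes of 2.47 ± 0.14 and 2.58 ± 0.13 (FDR = 4.56e-16 and 9.11e-18 by edgeR). Cdx1 rose from 117 ± 8.9 to 229 ± 27 CPM in wildtype (log2 0.96 ± 0.12) and from 166 ± 15 to 378 ± 34 CPM in Nr6a1-/- cells (log2 1.19 ± 0.11). Cdx2 rose from 59.9 ± 2.9 to 93.3 ± 3.2 CPM in wildtype (log2 0.64 ± 0.13, FDR = 0.00054). Mutant Cdx2 measured 97.8 ± 24 CPM at d2.5 and 114 ± 4.9 CPM at d3, ranges that overlapped (log2 0.22 ± 0.11, FDR = 0.21). One library, d2.5 Nr6a1-/- replicate 3, decided this last result, since without it the change was 0.44 and called (FDR = 0.0062). The shares of genes called were 11.5% in wildtype and 15.9% in Nr6a1-/- cells. No member was called for a difference between genotypes in this step, where 0.807% of genes were called, and Cdx2 had the largest difference of the members (-0.42, 95% CI -0.77 to -0.07, FDR = 0.28).

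At d3, Cdx1 was called between genotypes and Cdx2 and Cdx4 were not. Its libraries measured 344, 378 and 413 CPM in Nr6a1-/- and 260, 213 and 213 CPM in wildtype cells, without overlap, a log2 fold change of 0.73 ± 0.11 (FDR = 1.03e-05 by edgeR). Cdx2 measured 108, 118 and 115 CPM against 89.6, 94.5 and 95.7 CPM. These ranges did not overlap either, but the log2 fold change of 0.28 ± 0.12 was not called (FDR = 0.12). Cdx4 measured 120, 91.7 and 102 CPM against 105, 99.1 and 102 CPM, overlapping ranges with a log2 fold change of 0.04 (95% CI -0.17 to 0.25). The background of calls at d3 was 10.8%.

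**Figure D2:**
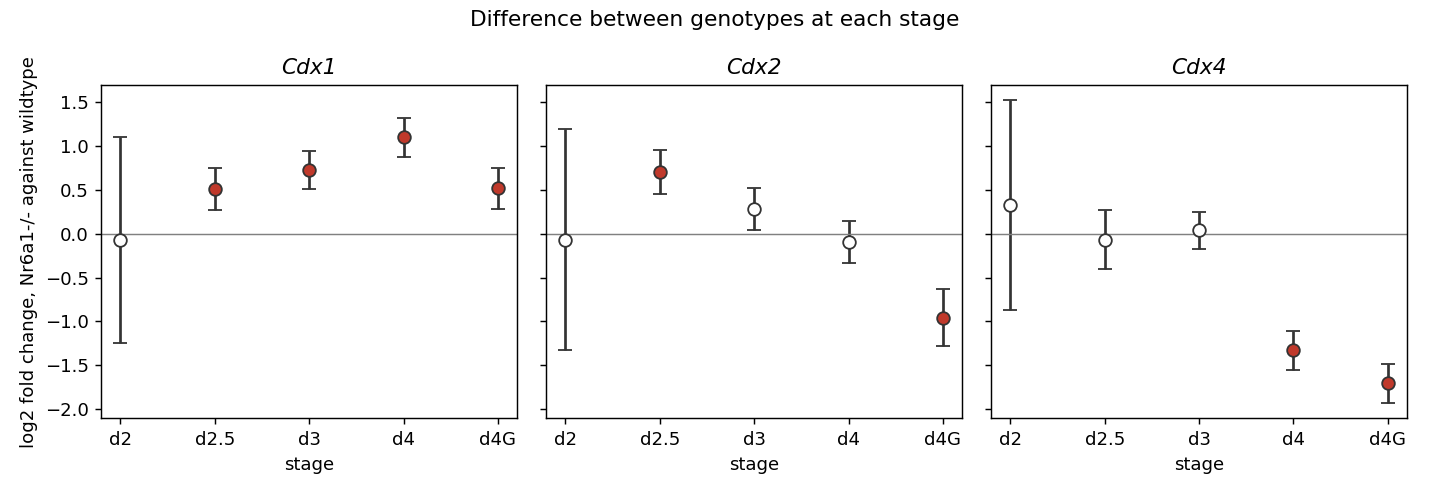
Log2 fold change of each member, Nr6a1-/- against wildtype, at each stage with its 95% confidence interval (3 libraries a group); filled points passed FDR 0.05 over all tested genes and open points did not. Cdx1 lay above 0 from d2.5 to d4G with its highest value at d4 (1.10), Cdx2 moved from 0.71 at d2.5 to -0.96 at d4G, and Cdx4 moved from 0.04 at d3 to -1.33 at d4 and -1.71 at d4G.

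Between d3 and d4 the genotypes parted in Cdx4. In wildtype cells Cdx4 measured 105, 99.1 and 102 CPM at d3 and 130, 127 and 129 CPM at d4, a log2 fold change of 0.33 ± 0.10 (FDR = 0.016 by edgeR). Without Nr6a1 it fell from 105 ± 14 to 55.5, 49.5 and 47.8 CPM, a log2 fold change of -1.04 ± 0.11 (FDR = 4.11e-09). The difference between genotypes in this step was -1.37 ± 0.15 (95% CI -1.68 to -1.07, FDR = 7.79e-08), in a comparison that called 5.72% of genes. It was -1.40 without d4 wildtype replicate 2. The small wildtype rise was less firm, and it was not called without d3 wildtype replicate 2 (log2 0.31, FDR = 0.071), d3 wildtype replicate 3 (0.32, FDR = 0.058) or d4 wildtype replicate 1 (0.31, FDR = 0.052), nor after thinning (0.26, FDR = 0.19). Without d4 wildtype replicate 2 it was called (0.36, FDR = 0.025).

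Cdx1 and Cdx2 changed less over the same step. Cdx1 fell in wildtype cells from 229 ± 27 to 159 ± 16 CPM (log2 -0.53 ± 0.11, FDR = 0.00065 by edgeR), and this change was -0.44 without d4 wildtype replicate 2. Mutant Cdx1 measured 378 ± 34 CPM at d3 and 340 ± 29 CPM at d4, with overlapping ranges (log2 -0.15 ± 0.11, FDR = 0.32). Cdx2 in wildtype cells measured 93.3 ± 3.2 and 95.6 ± 9.9 CPM (log2 0.04, 95% CI -0.20 to 0.27, and 0.08 without d4 wildtype replicate 2). In Nr6a1-/- cells Cdx2 fell from 114 ± 4.9 to 89.9 ± 6.7 CPM (log2 -0.34 ± 0.12, FDR = 0.030). That call was lost without any 1 of d3 replicates 2 and 3 and d4 replicates 1 and 2 of the Nr6a1-/- libraries (log2 -0.32, -0.35, -0.30 and -0.35, FDR = 0.078, 0.053, 0.090 and 0.060) and in DESeq2 (log2 -0.35, FDR = 0.056). The differences between genotypes were 0.37 for Cdx1 (95% CI 0.06 to 0.69, FDR = 0.16) and -0.38 for Cdx2 (95% CI -0.71 to -0.04, FDR = 0.19), neither of them called, and 0.29 and -0.42 without d4 wildtype replicate 2. Across all genes this step called 21.1% in wildtype and 25.9% in Nr6a1-/- cells.

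At d4, Cdx1 was higher and Cdx4 lower in Nr6a1-/- cells, and Cdx2 did not pass the test. Cdx1 measured 310, 366 and 346 CPM in Nr6a1-/- libraries and 175, 144 and 158 CPM in wildtype libraries, 2.14-fold higher (log2 1.10 ± 0.11, FDR = 1.02e-09 by edgeR). Cdx4 measured 55.5, 49.5 and 47.8 CPM against 130, 127 and 129 CPM, 2.52-fold lower (log2 -1.33 ± 0.11, FDR = 6.91e-12). Neither gene had overlapping ranges. Cdx2 measured 83.4, 89.4 and 96.9 CPM against 87.8, 92.2 and 107 CPM, overlapping ranges with a log2 fold change of -0.09 (95% CI -0.33 to 0.15). Without d4 wildtype replicate 2 the 3 values were 1.02 for Cdx1, -1.35 for Cdx4 and -0.13 for Cdx2, with the same calls. At d4, 18.9% of genes were called.

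With Gdf11, wildtype cells had more Cdx4 and less Cdx2. Cdx4 rose from 128 ± 1.6 CPM at d4 to 170, 164 and 188 CPM at d4G (log2 0.44 ± 0.10, FDR = 0.00066 by edgeR), while Cdx2 fell from 95.6 ± 9.9 CPM to 45.7, 45.5 and 42.7 CPM, 2.15-fold lower (log2 -1.10 ± 0.13, FDR = 1.92e-08). Cdx1 measured 159 ± 16 and 140 ± 10 CPM, with overlapping ranges (log2 -0.18 ± 0.12, FDR = 0.25). Without d4 wildtype replicate 2 these changes were 0.43, -1.13 and -0.25, with the same calls. Of all genes, 28.8% were called.

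In Nr6a1-/- cells Gdf11 was followed by a fall of Cdx1 and Cdx2. Cdx2 went from 89.9 ± 6.7 CPM to 24.4, 22.8 and 21.7 CPM, 3.92-fold lower (log2 -1.97 ± 0.15, FDR = 5.34e-13 by edgeR), and Cdx1 from 340 ± 29 CPM to 187, 202 and 212 CPM, 1.70-fold lower (log2 -0.76 ± 0.11, FDR = 2.40e-06). Cdx4 measured 50.9 ± 4.0 CPM without and 57.8, 46.1 and 54.5 CPM with Gdf11, overlapping ranges with a log2 fold change of 0.06 (95% CI -0.19 to 0.31). Here 18.0% of genes were called.

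The response of Cdx2 to Gdf11 differed between genotypes by -0.87 ± 0.20 (log2, Nr6a1-/- minus wildtype, FDR = 0.0087 by edgeR), and that of Cdx1 by -0.58 ± 0.16 (FDR = 0.038). For Cdx4 the difference was -0.38 (95% CI -0.70 to -0.06) and was not called (FDR = 0.22), so that a rise called in wildtype and not in Nr6a1-/- cells is not shown to differ between them. The background was 2.66% of genes. Without d4 wildtype replicate 2, Cdx2 stayed called (-0.83, FDR = 0.021) and Cdx4 was at -0.36 (FDR = 0.31). After thinning all libraries to the smallest total, the Cdx2 difference was -0.70 and was not called (FDR = 0.18). The Cdx1 difference lost its call without d4 wildtype replicate 2 or 3, d4 Nr6a1-/- replicate 2 or 3, d4G wildtype replicate 2 or 3, or d4G Nr6a1-/- replicate 1 or 2, with values from -0.51 to -0.59 and FDR from 0.066 to 0.12. All of these comparisons share the d4 or d4G libraries with those before them.

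**Figure D3:**
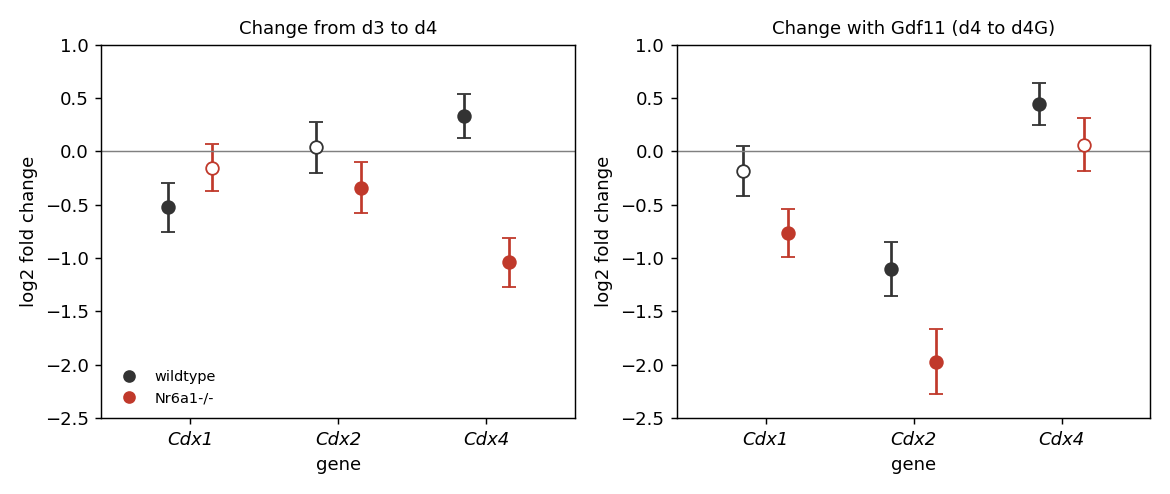
Log2 fold change of each member from d3 to d4 (left) and from d4 to d4G (right) in wildtype (black) and Nr6a1-/- cells (red), with 95% confidence intervals; filled points passed FDR 0.05. From d3 to d4 the genotypes lay furthest apart in Cdx4 (0.33 and -1.04), and with Gdf11 in Cdx2 (-1.10 and -1.97).

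At d4G, Cdx1 was higher and both Cdx2 and Cdx4 were lower in Nr6a1-/- cells. Cdx4 measured 57.8, 46.1 and 54.5 CPM against 170, 164 and 188 CPM, 3.27-fold lower (log2 -1.71 ± 0.11, FDR = 2.05e-14 by edgeR). Cdx2 measured 24.4, 22.8 and 21.7 CPM against 45.7, 45.5 and 42.7 CPM, 1.95-fold lower (log2 -0.96 ± 0.16, FDR = 4.83e-05). Cdx1 measured 187, 202 and 212 CPM against 131, 151 and 138 CPM, 1.43-fold higher (log2 0.52 ± 0.12, FDR = 0.0025). No member had overlapping ranges, and 7.92% of all genes were called. The d4G libraries do not include the d4 library that stood apart.

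Ordered by level over the 10 groups, Cdx1 and Cdx2 peaked in the same group and Cdx4 in another. Cdx1 was highest at d3 and d4 in Nr6a1-/- cells (378 and 340 CPM), neighbours whose ranges overlapped, and both were clear of the next group, d3 wildtype (229 CPM). Cdx2 was highest at d3 in Nr6a1-/- cells (114 CPM), and from there down to d4 Nr6a1-/- (89.9 CPM) each of the 5 highest groups overlapped the next. The lowest level of Cdx2 after d2 was in d4G Nr6a1-/- cells (22.9 CPM), clear of d4G wildtype (44.7 CPM) above it. Cdx4 was highest in d4G wildtype cells (174 CPM), followed without overlap by d4 wildtype (128 CPM), while the 2 groups at d3 (105 and 102 CPM) overlapped, as did the Nr6a1-/- groups at d4G and d4 (52.8 and 50.9 CPM). The d2 groups were lowest for every member, and the genotypes overlapped there.

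The makeup of the family's counts moved with stage and genotype. Shares are of the summed counts of the 3 genes in a library. They were not divided by length because the reads come from 3′ ends, and they serve to compare groups and not to say which gene had more molecules. In wildtype cells the share of Cdx4 was 8.53% to 9.86% at d2.5, 23.1% to 24.8% at d3, 32.7% to 34.9% at d4 and 45.6% to 50.9% at d4G, with no overlap from one stage to the next. In Nr6a1-/- cells it was 5.02% to 8.30% at d2.5, 15.6% to 21.0% at d3, 9.75% to 12.4% at d4 and 17.0% to 21.5% at d4G. At each of these 4 stages the Nr6a1-/- range lay below the wildtype range. The share of Cdx1 in d4G cells was 37.5% to 41.8% in wildtype and 69.5% to 74.6% in Nr6a1-/- cells, and that of Cdx2 was 11.6% to 13.2% and 7.54% to 9.04%. With 3 libraries against 3 an exact 2-sided permutation test of 1 share cannot go below p = 0.10, so these are given as ranges.

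**Figure D4:**
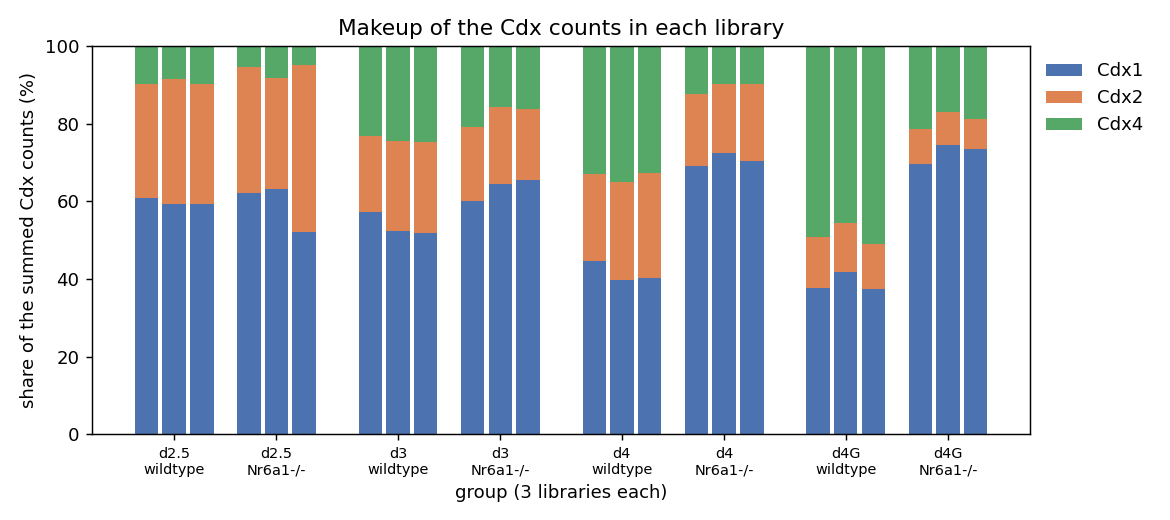
Share of the summed Cdx counts held by Cdx1 (blue), Cdx2 (orange) and Cdx4 (green) in each library from d2.5 on, in percent; each bar is 1 library. In wildtype the Cdx4 share went from 8.53–9.86% at d2.5 to 45.6–50.9% at d4G, and in Nr6a1-/- cells Cdx1 held 69.0–72.5% at d4 and 69.5–74.6% at d4G.

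The summed level of the family was also apart between genotypes after d2. Wildtype and Nr6a1-/- cells had sums of 195 ± 12 and 282 ± 15 CPM at d2.5, 424 ± 27 and 597 ± 30 CPM at d3, 383 ± 18 and 481 ± 29 CPM at d4, and 359 ± 11 and 276 ± 10 CPM at d4G. Dividing Nr6a1-/- by wildtype means gave a ratio of 1.44 at d2.5, of 1.41 at d3, of 1.26 at d4 and of 0.770 at d4G, and the ranges did not overlap at any of these stages. The d4 wildtype library that stood apart had the lowest sum of its group, 363 CPM against 393 and 394 CPM. At d4 the family as a whole was therefore higher in Nr6a1-/- cells while Cdx4 was lower, and at d4G the sum was lower although Cdx1 was higher.

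Over the 10 group means of log2 CPM, Cdx1 and Cdx2 correlated at r = 0.960, Cdx1 and Cdx4 at r = 0.898 and Cdx2 and Cdx4 at r = 0.857. The groups share their stages, so these coefficients mostly carry the contrast of d2 with the rest and are given as a description. Among 9709 genes with at least 10 CPM in a group, the pattern most like that of Cdx1 was that of Sp5 (r = 0.988), a Wnt-induced zinc finger factor, followed by Rgma, Fzd10, a Wnt receptor, Uhrf2 and Gm27477 (r = 0.975 to 0.979). Sp5 is also in the list of Wnt and Fgf genes described next. Most like Cdx2 were Sac3d1 (r = 0.960), Cdx1, Pdgfa, Foxb1 and Sp5 (r = 0.954 to 0.960). Most like Cdx4 were Mad1l1 (r = 0.980), Evx1os, an antisense gene beside the homeobox gene Evx1 whose reads cannot be told from those of Evx1 where the 2 overlap, Acbd3, Mfge8 and Jak2 (r = 0.970 to 0.972). Over the 30 single libraries these coefficients were 0.978 for Sp5 with Cdx1, 0.899 for Sac3d1 with Cdx2 and 0.880 for Mad1l1 with Cdx4. Of the 5 genes named for each member, 3 for Cdx1, 4 for Cdx2 and 2 for Cdx4 were also among the 5 most alike over single libraries. Mad1l1 measured 20.7 CPM in Nr6a1-/- and 24.1 CPM in wildtype cells at d4G, where Cdx4 measured 52.8 and 174 CPM.

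The Wnt and Fgf pathways act upstream of Cdx in the growth zone. A list of 17 of their ligands, TCF/LEF factors and Wnt targets was examined, all of them tested. For this list and those that follow, the share of all genes called in either direction between genotypes rose from 4.07% (d2) through 6.45% (d2.5) and 10.8% (d3) to 18.9% (d4), and stood at 7.92% at d4G. At d2.5, 7 were higher and 0 lower in Nr6a1-/- cells (median log2 0.40, against 0.00 over all genes), among them Wnt5a, a ligand (21.9 ± 1.8 against 5.74 ± 2.1 CPM), the Wnt targets Sp8 (118 ± 3.3 against 61.6 ± 30 CPM) and Sp5 (178 ± 3.1 against 109 ± 3.1 CPM), and Tcf7l2 (143 ± 4.7 against 89.3 ± 21 CPM). At d3, 6 were higher and 1 lower (median 0.30), led by Wnt5a (log2 1.36), Wnt8a (1.10), Wnt3a (0.91) and Wnt5b (0.58). At d4, 7 were higher and 2 lower (median 0.18), and the largest changes were those of the ligands Wnt8a (15.6 ± 2.4 against 0.670 ± 0.17 CPM), Wnt3a (31.9 ± 0.66 against 5.73 ± 1.7 CPM) and Fgf4 (90.5 ± 14 against 16.2 ± 4.4 CPM), and of Fgf8, which was lower (66.9 ± 13 against 135 ± 14 CPM). Without d4 wildtype replicate 2, 6 were higher and 2 lower. At d4G, 5 were higher and 4 lower (median 0.23), with Fgf4 (log2 2.08) and Wnt3a (0.86) higher and Sp8 (-1.63) and Fgf8 (-1.26) lower. At d2, before Wnt activation, 1 was higher (Tcf7l1, log2 0.47) and 1 lower, Axin2, a Wnt feedback target, at 3.33 ± 0.06 against 10.4 ± 0.76 CPM.

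The same list was counted over time. From d2 to d2.5, 11 rose and 3 fell in wildtype (median log2 1.21) and 11 rose and 2 fell in Nr6a1-/- cells (median 2.27), where 25.4% and 24.1% of all genes were called, with Sp5 from 2.85 to 109 CPM in wildtype and from 3.02 to 178 CPM in Nr6a1-/- cells. This change differed between genotypes for 2 of the 17 (0.609% of all genes), in the positive direction (Axin2 2.21 and Tcf7l2 0.95). That from d2.5 to d3 differed for 2 (0.807% of all genes), in the negative direction (Sp8 -1.13 and Axin2 -0.60). From d3 to d4, 5 rose and 5 fell in wildtype (4 and 5 without d4 wildtype replicate 2), and 5 rose and 4 fell in Nr6a1-/- cells, beside 21.1% and 25.9% of all genes. With Gdf11, 8 rose and 4 fell in wildtype (the same counts without d4 wildtype replicate 2) and 8 rose and 5 fell in Nr6a1-/- cells, beside 28.8% and 18.0%. The change from d3 to d4 differed between genotypes for 3 of the 17 (5.72% of all genes), all in the positive direction (Wnt8a 3.39, Fgf4 1.97 and Wnt3a 1.56 on the log2 scale), and the response to Gdf11 differed for 3 (2.66% of all genes), all in the negative direction (Wnt3a -1.61, Sp8 -1.43 and Wnt5b -0.68). Without d4 wildtype replicate 2 these counts became 3 positive and 2 negative from d3 to d4, and 0 positive and 2 negative for Gdf11.

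Of 10 transcription factors and enzymes of caudal progenitors, 9 were tested. At d2.5, 3 were higher and 1 lower in Nr6a1-/- cells, with Mixl1 at 117 ± 2.9 against 59.0 ± 22 CPM, Nkx1-2 at 164 ± 14 against 103 ± 4.8 CPM and Sall4 at 837 ± 99 against 528 ± 47 CPM, while Cyp26a1, which degrades retinoic acid, was lower at 0.127 ± 0.22 against 3.92 ± 1.2 CPM. At d3, 3 were higher and 1 lower, with T at 500 ± 35 against 307 ± 11 CPM and Tbx6, a factor of presomitic mesoderm, at 25.3 ± 5.7 against 12.9 ± 3.3 CPM, besides Nkx1-2 at 218 ± 29 against 128 ± 7.7 CPM, while Cyp26a1 was lower at 8.88 ± 1.1 against 18.6 ± 1.1 CPM. At d4, 5 were higher and 1 lower (median log2 0.69), with Nkx1-2 (2.45), Mixl1 (2.31), Tbx6 (0.99) and Dll1 (0.81), and the counts were the same without d4 wildtype replicate 2. At d4G, 3 were higher and 4 lower, with Tbx6 (0.83) higher and Sox2 (-1.52), Cyp26a1 (-1.16) and Evx1 (-1.06) lower. The response to Gdf11 differed between genotypes for 5 of the 9, where 2.66% of all genes were called, all in the negative direction (5 also without d4 wildtype replicate 2), among them Nkx1-2 (-2.18), Mixl1 (-1.51), Cyp26a1 (-1.34) and Sox2 (-1.24). That is also the direction of Cdx1 and Cdx2 in the same comparison.

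Hox genes of paralogue groups 5 to 9 include the trunk Hox genes, which Cdx factors are known to activate. The list also holds group 5, which the study does not count among its trunk Hox genes. Of 14 tested, Nr6a1-/- cells had 0 higher and 8 lower at d4 (median log2 -0.80, the same counts without d4 wildtype replicate 2), with Hoxa9 at 9.10 ± 1.4 against 39.0 ± 8.0 CPM and Hoxb9 at 33.6 ± 2.7 against 88.4 ± 5.5 CPM. At d2.5 they had 0 higher and 4 lower, at d3 2 and 4, and at d4G 0 and 5. At d4G the largest were Hoxc6 (13.8 ± 1.7 against 48.9 ± 4.2 CPM), Hoxc8 (31.9 ± 3.1 against 108 ± 20 CPM) and Hoxc9 (78.6 ± 11 against 237 ± 4.2 CPM). The median log2 at d4G was -0.17. Hoxa9 measured 145 ± 5.2 against 155 ± 6.0 CPM there, and Hoxa5, Hoxb5, Hoxb7 and Hoxd8 had higher means in Nr6a1-/- cells. Of the 14, 2 differed between genotypes in the response to Gdf11, where 2.66% of all genes were called. Both were in the positive direction (Hoxa9 1.97 and Hoxb9 1.15), opposite to Cdx1 and Cdx2 in the same comparison. At d2.5 and d3, Cdx4 was not called between genotypes and Cdx1 was higher, as was Cdx2 at d2.5. The part of the Cdx levels in these Hox differences was not tested.

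The other ParaHox genes, Gsx1, Gsx2 and Pdx1, did not pass the filter. Over all 30 libraries they held 9, 4 and 25 counts, and no library held more than 4 counts of any of them. Gsx1 and Pdx1 lie beside Cdx2 in the ParaHox cluster, and were counted in 6 and 16 libraries.

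Cdx genes also mark other cells. Of the trophectoderm markers, Elf5 was at 0 in 8 of the 10 groups and held 1 count in each of the others, and the summed 11 markers lay at 140 to 147 CPM in wildtype and 44.4 to 50.3 CPM in Nr6a1-/- cells at d4. Most of that sum was the keratins Krt8 (39.0 against 11.5 CPM) and Krt18 (88.3 against 27.4 CPM), which many epithelia express, while Gata3, Tfap2c and Ascl2 had means of at most 3.89 CPM at d4. The summed 12 markers of gut and visceral endoderm ran from 20.8 to 76.7 CPM in wildtype and from 4.5 to 16.4 CPM in Nr6a1-/- libraries over all stages, and the intestinal gene Cdh17 was at 0 in every group. From d2.5 to d4G both sums were lower in Nr6a1-/- than in wildtype libraries without overlap. At d2 the gut and visceral endoderm sum was also lower, while the trophectoderm sum was higher (147 to 167 against 111 to 127 CPM). The 4 somite markers summed to 191 to 259 CPM in Nr6a1-/- and 21.7 to 28.1 CPM in wildtype libraries at d4, and to 32.9 to 36.0 and 14.2 to 24.9 CPM at d4G. Meox1 made up most of the Nr6a1-/- sum at d4 (a mean of 4.02 CPM in wildtype), and Pax3 stood the other way (0.588 against 9.20 CPM at d4, 6.80 against 12.7 CPM at d4G). The 7 feeder fibroblast markers summed to 33.2 to 38.8 CPM in Nr6a1-/- and 16.3 to 22.6 CPM in wildtype libraries at d2. This sum was also higher in Nr6a1-/- libraries at d2.5 and d3, lower at d4 (16.9 to 22.8 against 25.5 to 29.3 CPM) and overlapping at d4G. The 4 neural markers summed to 64.4 to 75.7 against 102 to 107 CPM at d2, were also lower at d3 and d4G, and overlapped at d2.5 and d4. The part of such cells in the Cdx results was not tested, and in these bulk libraries fewer cells of a type and less RNA per cell cannot be told apart.

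In GENCODE release M21 (GRCm38, the build of mm10), Cdx1 lies on chromosome 18 from 61018862 to 61036199 on the minus strand, Cdx2 on chromosome 5 from 147300805 to 147307270 on the minus strand and Cdx4 on chromosome X from 103321398 to 103330592 on the plus strand. Each has 1 annotated transcript of 3 exons, and no other annotated gene overlaps any of them. Within 150 kb, 2 genes near Cdx1 (Camk2a and Pdgfrb), 1 near Cdx2 (Pan3) and 2 near Cdx4 (Chic1 and Nap1l2) were tested. From d2 to d2.5, Pdgfrb, 9.0 kb from Cdx1, rose with Cdx1 in both genotypes (FDR = 0.0024 in wildtype, from 0 counts, and 0.00043 in Nr6a1-/- cells), though no group mean of it passed 7.03 CPM. Camk2a, Pan3 and Chic1 rose in Nr6a1-/- cells in the same step (log2 2.08, 0.75 and 0.69), where Pan3 fell in the next (-0.91), and with Gdf11 Pdgfrb and Pan3 rose in wildtype (1.54 and 1.04). None of these 5 was called between genotypes at any stage by edgeR, and the smallest FDR was 0.11, for Pdgfrb at d4 (log2 0.98). Chic1, 25.9 kb from Cdx4, had log2 fold changes of -0.35 at d4 (FDR = 0.20) and -0.18 at d4G (FDR = 0.70), where those of Cdx4 were -1.33 and -1.71. The medians over the tested genes of chromosomes 5, 18 and X lay between -0.02 and 0.11 on the log2 scale at every stage.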

How the data were processed

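RNA was measured in 30 libraries, and groups and replicate numbers were taken from the sample labels. Per the labels and the study's methods, the authors read the 3′ ends of polyadenylated RNA and aligned the reads with STAR to mm10. The counter, annotation, use of strand and collapsing of molecular identifiers are not given in the sources used here. The deposited table holds raw whole-number counts per gene and library, which can include amplified copies. Tables of the authors' own comparison of genotypes, made with edgeR and deposited for each stage, were not used. All 30 columns were matched to a sample, and 0 others were left.

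A gene was tested where 2 or more libraries of 1 group had over 10 counts and over 2 CPM (12149 of 54134 rows, which hold 99.2% or more of the counts in every library). Counts were scaled by TMM and 1 model of 10 groups, with 20 residual degrees of freedom, was fitted with edgeR 4.0.16 under R 4.3.3. The 17 comparisons were Nr6a1-/- against wildtype at 5 stages, 4 successive steps in each genotype and their 4 differences between genotypes. Tests were 2-sided quasi-likelihood tests, adjusted by Benjamini-Hochberg across every gene tested and called below 0.05. The SE is the log2 fold change over the square root of F, and 95% intervals use it. Libraries of a group were compared pairwise, with a chi-square per gene of 1.46 to 7.00 for the 30 pairs, and none were merged. Same-numbered replicates did not deviate together. The fit was tested on simulated data. Alternatives were RLE factors, no scaling factors, no filter, the compared libraries alone, DESeq2 1.42.0, a replicate block, thinning to the smallest total and leaving out each library. Counting the lists without d4 wildtype replicate 2 was added after seeing the data.

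Named beside the members are the 5 genes most like each, tested genes within 150 kb, and in each list up to 4 called genes of largest log2 fold change. The members and lists were chosen with earlier results of these data known. Sequences came from RefSeq (GRCm38.p6, an entry for 2 of the 3 members) and GENCODE M21.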

Additional observations from a re-analysis of the deposited data

Results flagged for a closer look

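Differences between genotypes in a change over time passed the test for 3 results. For Cdx4 the change from d3 to d4 differed by -1.37 on the log2 scale (Nr6a1-/- minus wildtype, FDR = 7.79e-08 by edgeR's quasi-likelihood test), with all 3 wildtype libraries higher at d4 than at d3 and all 3 Nr6a1-/- libraries lower. For Cdx2 the response to Gdf11 differed by -0.87 (FDR = 0.0087), and for Cdx1 by -0.58 (FDR = 0.038). These 2 were less firm, since the Cdx2 call was lost after thinning (FDR = 0.18) and the Cdx1 call in 8 of 19 alternatives. Cdx2 was lower with Gdf11 in all 3 libraries of both genotypes, and Cdx1 in all 3 Nr6a1-/- libraries, while the wildtype ranges of Cdx1 overlapped.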

How the results depend on the processing

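Of the 51 member results, 30 were called, and 25 of these kept direction and call under every alternative run, the replicate block included. With the replicate block Cdx4 at d4 was -1.34 and Cdx2 at d4G -0.97 (log2, Nr6a1-/- against wildtype), and the block changed no member's call. Across 732 alternative values 21 lost a call and 2 gained one. Cdx2 from d3 to d4 in Nr6a1-/- cells was not called without the filter (-0.34), after thinning (-0.37) or in DESeq2 (-0.35), and ran from -0.40 to -0.30 when single libraries were left out. Thinning also ended the calls of Cdx4 from d3 to d4 in wildtype (0.26) and of the Cdx2 difference in the Gdf11 response (-0.70), and made the Cdx1 difference from d3 to d4 a call (0.54). Leaving out single libraries gave 0.31 to 0.36 for Cdx4 from d3 to d4 in wildtype, 0.43 to 0.57 for Cdx1 at d2.5, 0.062 to 0.44 for Cdx2 from d2.5 to d3 in Nr6a1-/- cells and -0.65 to -0.51 for the Cdx1 difference in the Gdf11 response. The cause was not tested, beyond the fewer libraries or counts that these alternatives hold. Directions turned for results that were not called. Cdx2 at d2 was 0.42 after thinning and Cdx2 from d3 to d4 in wildtype -0.0051 without scaling factors. Without single libraries Cdx1 at d2 ran from -1.24 to 0.42, Cdx2 at d2 from -0.31 to 0.35, Cdx4 at d2.5 from -0.27 to 0.045, Cdx4 at d3 from -0.079 to 0.13, Cdx2 from d3 to d4 in wildtype from -0.048 to 0.080, Cdx4 from d4 to d4G in Nr6a1-/- cells from -0.00082 to 0.14 and the Cdx4 difference from d2.5 to d3 from -0.012 to 0.30. Counts of all genes called moved by over 1.5 times in 10 comparisons. For the differences between genotypes they went from 74 to 26 without d2 Nr6a1-/- replicate 2 and to 317 without the filter (d2 to d2.5), from 98 to 47 without d2.5 wildtype replicate 1 and to 359 without the filter (d2.5 to d3), from 695 to 420 after thinning and to 1157 without d4 Nr6a1-/- replicate 1 (d3 to d4), and from 323 to 161 after thinning and to 822 without d4 Nr6a1-/- replicate 1 (Gdf11). Thinning also lowered them between genotypes from 494 to 287 (d2), 784 to 443 (d2.5) and 1309 to 765 (d3), from 2560 to 1606 (d3 to d4, wildtype) and from 1930 to 1252 (d2.5 to d3, Nr6a1-/-), and the fit of the compared libraries alone from 2295 to 1398 (d4). In 5 comparisons the share of higher calls moved by over 10 points without scaling factors, from 33.2% to 44.2% at d2, from 52.3% to 66.0% (d2 to d2.5) and 49.8% to 63.0% (Gdf11) in wildtype, and from 52.5% to 40.3% (d3 to d4) and 46.8% to 59.6% (Gdf11) in Nr6a1-/- cells. At d2 the members held 1 to 8 counts a library, which limits every comparison that uses that stage.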
